A study of Mus musculus with 15 samples.

Results

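Ribosomal protein genes were followed through all 6 groups of a translating ribosome affinity purification (TRAP) study of the mouse dentate gyrus (DG). The genes were taken by symbol: the rows for large subunit (Rpl) and small subunit (Rps) proteins, together with Rplp0, Rplp1, Rplp2 and Rpsa. This gave 85 of the 32657 gene rows in each count file, of which 53 belong to the large and 32 to the small subunit. In the fits, 79 of the 85 passed the expression filter of edgeR, 47 of the large and 32 of the small subunit. The rule used no measured value.

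The study removed exon 5 of Htr4, the serotonin receptor gene, by crossing Htr4Floxed mice with the KI198Cre driver, a Drd3-Cre BAC line active in mature granule cells and hilar mossy cells. WT and cKO mice both carried Rosa26fsTRAP, a Cre-dependent EGFP fused to ribosomal protein L10a, and all were adult C57BL/6J mice of 8 to 12 weeks. The 15 libraries comprised vDG IP from 3 WT and 2 cKO pools, vDG input from 3 WT and 2 cKO pools, and dDG input from 3 WT and 2 cKO pools, where vDG and dDG are the ventral and dorsal DG. IP is RNA bound to EGFP-tagged ribosomes and input is RNA of the whole dissected tissue before purification. By the study's methods the input was a fraction of the cleared homogenate that went into the IP. Each library is a pool rather than an animal: the records give 3 mice per IP pool and 2 per input pool, while the study's methods give 1 male and 1 female mouse for each replicate. No dDG IP entered these comparisons.

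A ribosome is built from a large subunit, which joins amino acids, and a small subunit, which reads the mRNA, and most of its proteins occur as a single copy per particle. The mRNAs of these proteins are abundant and short, and most begin with a run of pyrimidines, the terminal oligopyrimidine (TOP) motif, through which mTOR signaling and LARP1 control their translation as a group. In TRAP, an mRNA is recovered in proportion to the tagged ribosomes on it. TOP mRNAs also exist in a stored form that carries few ribosomes.

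Start windows are shown for the members with the lowest and the highest vDG to dDG difference in WT mice among those with a RefSeq entry, because that comparison gave most of the calls below. Each window holds 30 bases of GRCm38.p6 (mm10) on the sense strand, 12 before and 18 from the annotated start, with its longest run of C and T in capitals. Those of Rps27, Rps6 and Rpl15 hold a run of at least 8 pyrimidines across the start, and the other 5 do not.
Rps16, chr7:28350677-28350706, plus strand: gCTTCTgtcgtgacgtagcactcaatgcgc
Rpl37, chr15:5116601-5116630, plus strand: TTCCTgggcggaagcttatccacaggaagt
Rps27, chr3:90213631-90213660, minus strand: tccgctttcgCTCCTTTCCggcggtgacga
Rpl37a, chr1:72711248-72711277, plus strand: cgCTCgccggtctaaaaccgcgcatgcgca
Rps6, chr4:86857350-86857379, minus strand: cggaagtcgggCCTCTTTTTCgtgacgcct
Rpl15, chr14:18270969-18270998, minus strand: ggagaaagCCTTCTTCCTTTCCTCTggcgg
Rpl6, chr5:121204489-121204518, plus strand: tcaCCTCCCgtcattgcttatagaccggaa
Rpl7l1, chr17:46782639-46782668, minus strand: aggCTgcgcaagcgcagtagctgaagcacc
A RefSeq window was found for 58 of the 79 tested members. Within 30 bases either side of the start, 30 of the 58 (51.7%) held a run of at least 8 pyrimidines, against 22.8% of all 27025 windows and 21.1% of the 10820 windows of other tested genes. The reverse, a run of at least 8 purines, stood in 13.8% of member windows and 25.2% of all windows. The letters CCGGAAG, sought on both strands of the whole 300-base window, stood in 22 of the 58 (37.9%), against 9.12% of all windows and 16.6% of other tested genes. TATAAA on the sense strand of the 60 bases before the start was found in 1 member (1.72%) and in 3.15% of all windows. Some annotated starts lie a few bases from the pyrimidine run, so a window without one says nothing of the mRNA made in these cells.

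Total counts on genes ran from 19039295 to 30451430 per library, and ribosomal protein genes took 0.564% to 1.34% of them. The level of Htr4 over the whole gene, in CPM (counts scaled to the same library size), was 12.8 to 14.9 in WT and 24.3 to 28.1 in cKO vDG IP, 14.3 to 19.2 in WT and 29.6 to 30.8 in cKO vDG input, and 24.9 to 34.5 in WT and 48.0 to 52.2 in cKO dDG input. It covers all exons, not exon 5 alone, and so does not check the deletion, and it was higher in every library labelled cKO than in the WT libraries of the same tissue and fraction. Depletion of astrocyte RNA in the IP was measurable: the 5 astrocyte markers summed to 404 to 505 CPM in WT vDG input and 55.7 to 101 CPM in WT vDG IP, and none was at 0. Other cell types varied. In the WT IP 5 of 6 interneuron and 4 of 5 oligodendrocyte markers were called lower, but only 1 of 4 tested endothelial and mural markers. The 5 mature granule cell markers summed to 958 to 1106 CPM in WT vDG input and 1195 to 1328 CPM in the IP. A pair of libraries stood apart in the genes described here. Among the 79 tested members, 60 had their highest level in WT dDG input replicate 2, the shallowest library, and 56 had their lowest in WT vDG IP replicate 3. The main counts and medians of the comparisons that use either are also given without it.

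Levels differed widely between members. They are given in CPM of library sizes scaled by the trimmed mean of M values (TMM), as means over the 15 libraries, and per kb of the principal transcript where genes are compared. Rpl4, a protein lining the exit tunnel of the large subunit, was highest on both scales, with 645 CPM and 419 CPM per kb. Rpl3, which sits by the catalytic center, followed on the CPM scale with 361 CPM, and Rpl10, a late-joining protein of the large subunit, was next with 287 CPM. Per kb, Rpl10 (359 CPM per kb), Rps27 (314 CPM per kb) and Rps15 (312 CPM per kb) came after Rpl4. The median tested member had 92.2 CPM. At the low end were Rps27l with 5.85 CPM, Rps4l with 8.54 CPM and Rpl35 with 18.5 CPM. On the length scale Rpl7l1 was lowest with 8.17 CPM per kb, and Rps20 was low with 17.8 CPM per kb, its principal transcript being annotated with 3706 bases. The counting kept uniquely aligned reads, and 9.28% to 13.4% of alignments per library were not unique. Since these genes have many processed pseudogenes, their levels, and the order of the levels, are uncertain.

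Of the 6 members that did not pass the filter, Rpl10l and Rpl26 were listed at 0 in all 15 libraries. Rpl10l is a retrogene copy of Rpl10 used in the testis. Rpl26 (ENSMUSG00000060938, mm10 chr11:68901583-68906989) encodes a protein of every ribosome, so its value says that it was listed at 0 and not that it was absent. Rpl3l, the striated muscle form of Rpl3, had 0 to 8 counts per library, Rpl36al and Rpl39l had 0 to 3 each, and Rpl32l had 0 to 8. The paralogs that were measured lay below their partners. Rpl22l1 had 69.0 CPM per kb against 189 for Rpl22, Rps27l had 11.7 against 314 for Rps27, and Rpl7l1 had 8.17 against 97.2 for Rpl7. Rps4l (ENSMUSG00000063171, mm10 chr6:148354656-148355598), annotated as a transcribed processed pseudogene, had 8.54 CPM against 273 CPM for Rps4x, and reads of such a copy cannot be assigned with certainty.

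**Figure D1:**
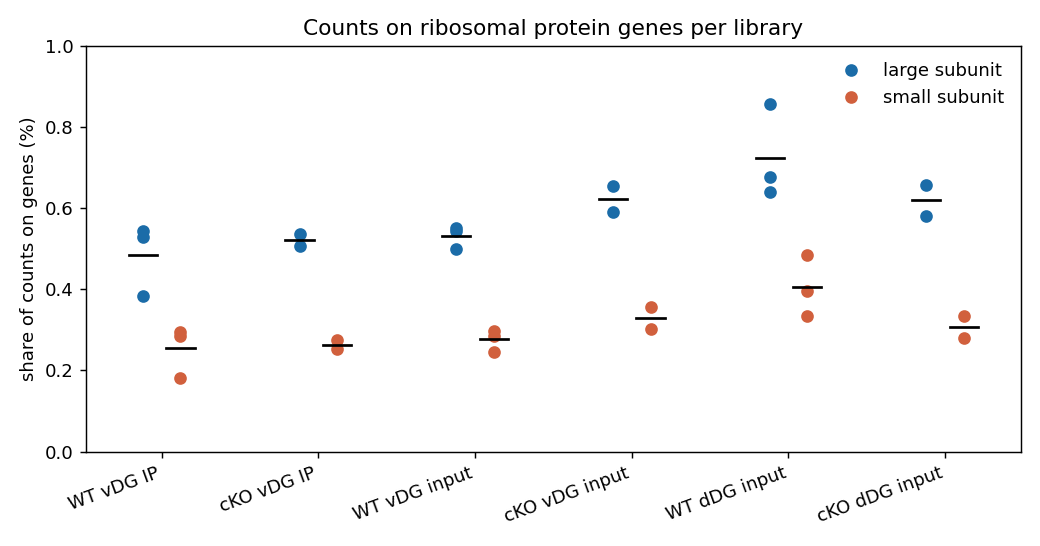
Share of counts on genes (%) taken by large subunit (blue) and small subunit (orange) ribosomal protein genes, 1 point per library with the group mean as a bar. WT dDG input replicate 2 is the highest point of both subunits (0.857% and 0.485%) and WT vDG IP replicate 3 the lowest (0.382% and 0.182%).

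The large and small subunits moved together across libraries. The ratio of their summed counts ranged from 1.71 in WT dDG input replicate 1 to 2.10 in WT vDG IP replicate 3. Over the 15 libraries, a member's log2 CPM followed the mean of the other tested members with a median correlation of 0.88, and 72 of 79 exceeded 0.5. Without WT dDG input replicate 2 and WT vDG IP replicate 3 the median was 0.76 and 65 exceeded 0.5, a check chosen after seeing the data. These libraries share tissue, amplification and scaling, and the values are a description. The members that followed least were Rps4l (-0.13), Rpl15 (0.15), Rpl7l1 (0.31), Rpl10a (0.39) and Rpl7a (0.43). Rpl15, a large subunit protein buried in ribosomal RNA, had 116 to 166 CPM in the 13 inputs and WT IP libraries, and its highest values, 239 and 178 CPM, were both in the cKO vDG IP.

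**Figure D2:**
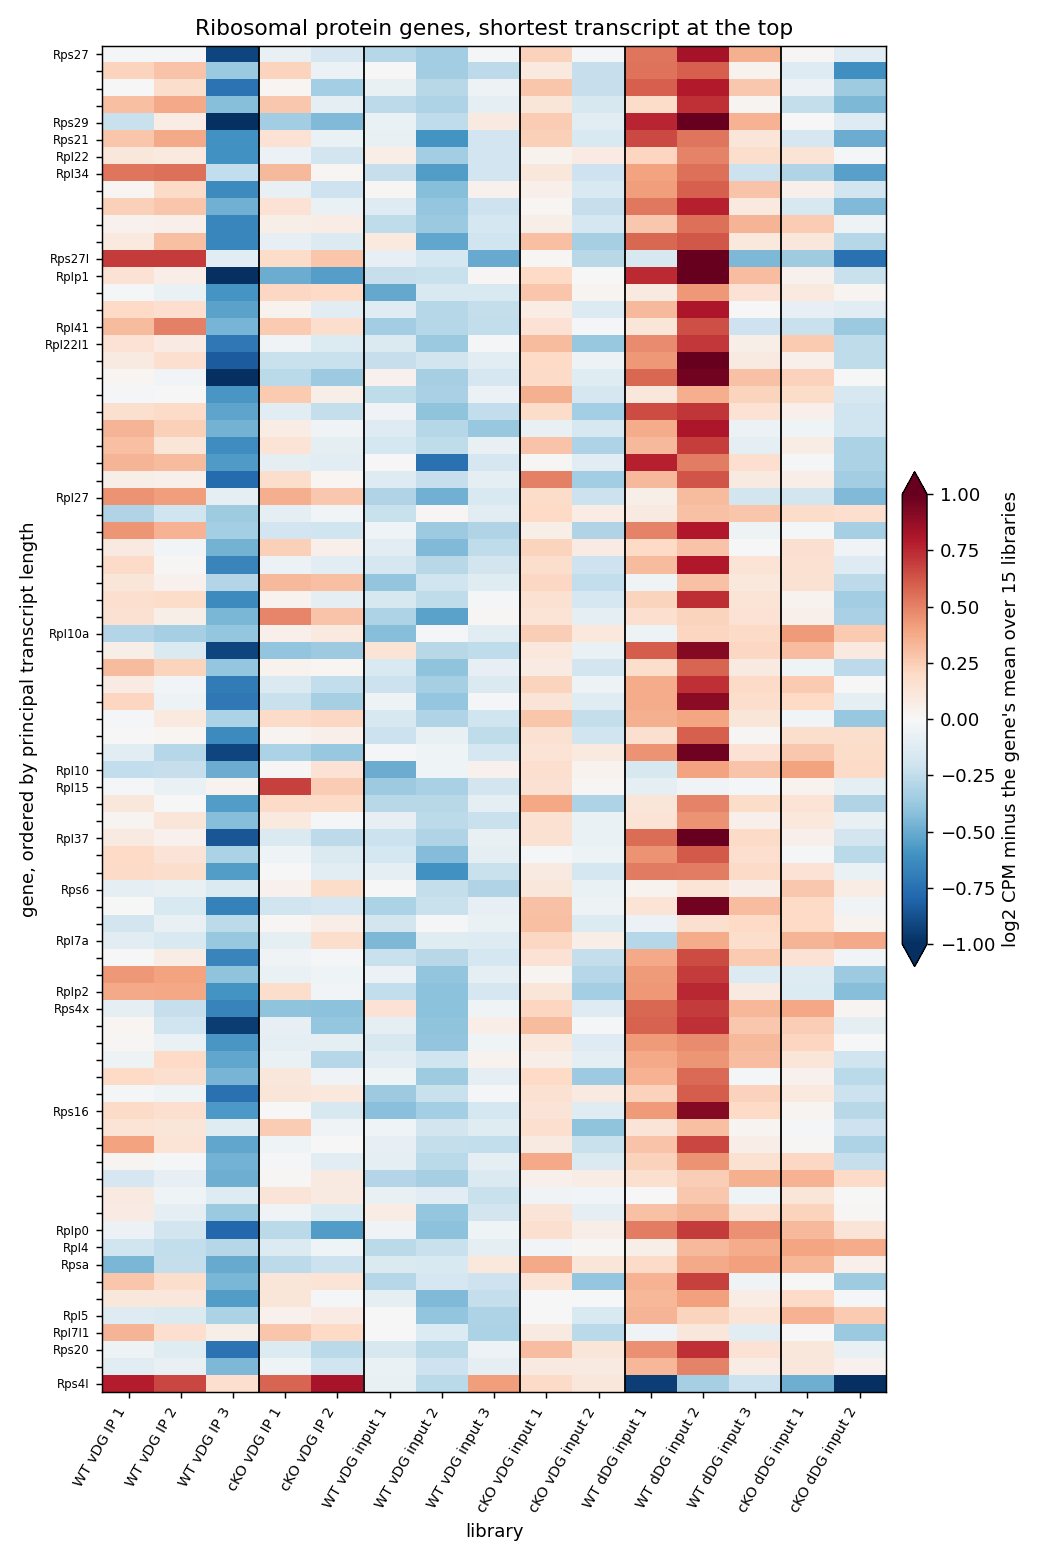
Log2 CPM of the 79 tested members in 15 libraries, each minus the gene's mean over the libraries. Genes run from the shortest principal transcript at the top to the longest, with Rps4l, which has none annotated, last, and some of the genes described in the text are labelled. WT dDG input replicate 2 is red and WT vDG IP replicate 3 blue for most genes, and the contrast is strongest in the upper, shorter genes.

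The first comparison asked whether the mRNAs bound to tagged ribosomes differ from those of the whole vDG. In WT mice most ribosomal protein genes showed no called difference: 2 were higher in the IP, 1 was lower and 76 did not pass the threshold (edgeR quasi-likelihood test, FDR under 0.05). Among all 15011 genes tested, 7.73% were called higher and 16.1% lower. The median log2 fold change of the members was 0.02, beside 0.00 for all genes, with 0.00 for the large and 0.04 for the small subunit. The groups did not overlap in 3 members that were higher and 1 that was lower, against 20.2% and 21.1% of all genes.

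Rpl34, a large subunit protein, had 41.9, 42.4 and 24.4 CPM in the 3 WT IP libraries and 24.7, 19.7 and 25.4 CPM in the inputs. It was higher in the IP by 0.59 ± 0.20 on the log2 scale (SE, adjusted p = 0.046 by edgeR), although IP replicate 3 lay within the input range. Rpl27, also of the large subunit, had 61.7, 60.6 and 42.3 CPM against 36.8, 32.4 and 40.8 CPM, without overlap, a log2 difference of 0.53 ± 0.16 (edgeR adjusted p = 0.028). The study listed both genes on these libraries, so their direction is not independent of that choice. Rpsa, a small subunit protein also known as the laminin receptor, had 75.4, 87.8 and 72.7 CPM in the IP and 93.6, 93.1 and 111 CPM in the inputs. Its groups did not overlap, and it was lower in the IP by 0.39 ± 0.13 (log2 fold change -0.39, edgeR adjusted p = 0.043).

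The largest log2 fold change, 0.67 ± 0.24, was that of Rps27l, the stress-inducible paralog of Rps27, which did not pass (edgeR adjusted p = 0.062). Its levels were 8.97, 8.97 and 5.10 CPM in the IP and 5.21, 4.88 and 3.88 CPM in the inputs, so IP replicate 3 overlapped the inputs. Rps4l had 0.46 ± 0.22 (edgeR adjusted p = 0.15). Rpl13 and Rps29, of the large and small subunit, had -0.37 ± 0.17 and -0.31 ± 0.22 and did not pass. IP replicate 3 decided the number of calls: without it 20 members were called higher and 0 lower, and the median was 0.23. The groups then did not overlap in 51 members that were higher and 1 that was lower, where 29.5% and 26.3% of all genes did so. Without IP replicate 1, Rpl13 was called lower and the 3 calls above were lost. Without IP replicate 2 only Rpsa was called, without input replicate 3 only Rpl27, and without input replicate 1 or 2 no member, so that no member was called in all 6 such fits.

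In cKO mice the same comparison of 2 IP and 2 input libraries called 0 members higher and 14 lower, 6 of the large and 8 of the small subunit, with 11.8% of all 15126 genes called higher and 15.7% lower. A share of 14 in 79 is near that background, but more members were called with a replicate block, as given in the closing part. The members' median was -0.07, beside -0.03 for all genes. Its direction turned with the trend in GC content removed (0.19), and 3 members were called with all libraries in 1 fit and 23 when only library size scaled the counts. The groups did not overlap in 11 members that were higher and 21 that were lower, against 33.9% and 31.6% of all genes. The lowest were 2 proteins of the stalk that draws elongation factors to the large subunit. Rplp1 had 86.7 and 83.8 CPM in the cKO IP and 141 and 123 CPM in the input, a log2 fold change of -0.68 ± 0.11 (edgeR adjusted p = 0.00070). Rplp0, the base of that stalk, had 54.3 and 44.5 CPM against 73.3 and 68.6 CPM, a log2 fold change of -0.57 ± 0.13 (edgeR adjusted p = 0.0057).

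The other stalk protein, Rplp2, had 0.12 ± 0.14 (edgeR adjusted p = 0.58), which turned to -0.08 without cKO input replicate 2. Rpsa was lower here too, with 86.1 and 89.2 CPM in the IP and 134 and 112 CPM in the input (log2 fold change -0.54 ± 0.11, edgeR adjusted p = 0.0040). Rpl13, Rplp0, Rplp1 and Rpsa were called without each of the 4 libraries in turn, and the other 10 calls were lost without at least 1. Without cKO input replicate 1, 4 members were called higher and 4 lower, and without cKO IP replicate 2, 2 higher and 7 lower. The highest log2 fold changes, 0.50 ± 0.20 for Rps4l, 0.35 ± 0.13 for Rpl15 and 0.31 ± 0.26 for Rps27l, did not pass. The WT and cKO comparisons share no library, but whether they differ was tested directly: the genotype by fraction term called 0 of 79 members and 0 of all 16093 genes by edgeR, 0 members in either direction at an unadjusted p under 0.05, where 1.59% of all genes were higher and 1.5% lower, and 0 members by DESeq2. The median term was -0.12, beside 0.02 for all genes. Without WT IP replicate 3 it was -0.37, with 33 members lower and 0 higher at an unadjusted p under 0.05 and 0 called. The shares of all genes above are of the fit with that library, and none is given without it.

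Rpl10a (ENSMUSG00000037805, mm10 chr17:28328471-28331033), the protein that carries the EGFP tag, was of interest because reads of the tagged transgene, made in the KI198Cre cells of WT and cKO mice alike, can fall on its exons and cannot be told apart from the native mRNA. It had 120, 117 and 113 CPM in the WT IP and 110, 146 and 137 CPM in the WT input, a log2 fold change of -0.22 ± 0.13 (edgeR adjusted p = 0.24). In the cKO it had 153 and 158 CPM in the IP and 175 and 159 CPM in the input, a log2 fold change of -0.15 ± 0.10 (edgeR adjusted p = 0.28). It passed the test in neither genotype, and the cKO value turned to 0.09 with the trend in GC content removed.

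The effect of the cKO on the IP was compared next, at the study's FDR of 0.1 for this contrast. By edgeR 0 of 79 members were called, beside 0.0699% of 14300 genes called higher and 0.350% lower. At an unadjusted p under 0.05, 6 members were higher and 0 lower, against 4.14% and 7.57% of all genes. DESeq2 called 2 members, both higher. The median over members was 0.05, beside 0.00 for all genes. In 20 members both cKO libraries lay above all 3 WT libraries and in 0 below, where 14.0% and 16.8% of all genes did so. Mature granule cell markers summed to 1195 to 1328 CPM in WT and 1364 to 1443 CPM in cKO IP, with 0 called. Interneuron markers summed to 166 to 190 and 115 to 130 CPM, with 1 of 4 tested called lower. The part of these markers in the result was not tested.

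Rpl15 had the largest value, with 148, 143 and 153 CPM in WT and 239 and 178 CPM in cKO, a log2 fold change of 0.50 ± 0.14 (edgeR adjusted p = 0.21). Rpl29, a large subunit protein, followed with 0.46 ± 0.17, and Rpl10a with 0.42 ± 0.13, its WT libraries at 113 to 120 CPM and its cKO libraries at 153 and 158 CPM. Rpl10 had 237, 241 and 199 CPM in WT and 283 and 311 CPM in cKO, a log2 fold change of 0.41 ± 0.14 (edgeR adjusted p = 0.28). The groups of Rpl15, Rpl10a and Rpl10 did not overlap, and all 3 were listed by the study on these libraries. The lowest were Rps27a (-0.38 ± 0.20), which encodes ubiquitin fused to a small subunit protein, Rplp1 (-0.32 ± 0.26) and Rpl35 (-0.24 ± 0.23). Without WT IP replicate 3 the median was -0.14, and the 2 calls made were Rplp1 and Rps27a, both lower in cKO. The groups then did not overlap in 20 members that were higher and 45 that were lower, where 21.9% and 24.6% of all genes did so.

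**Figure D3:**
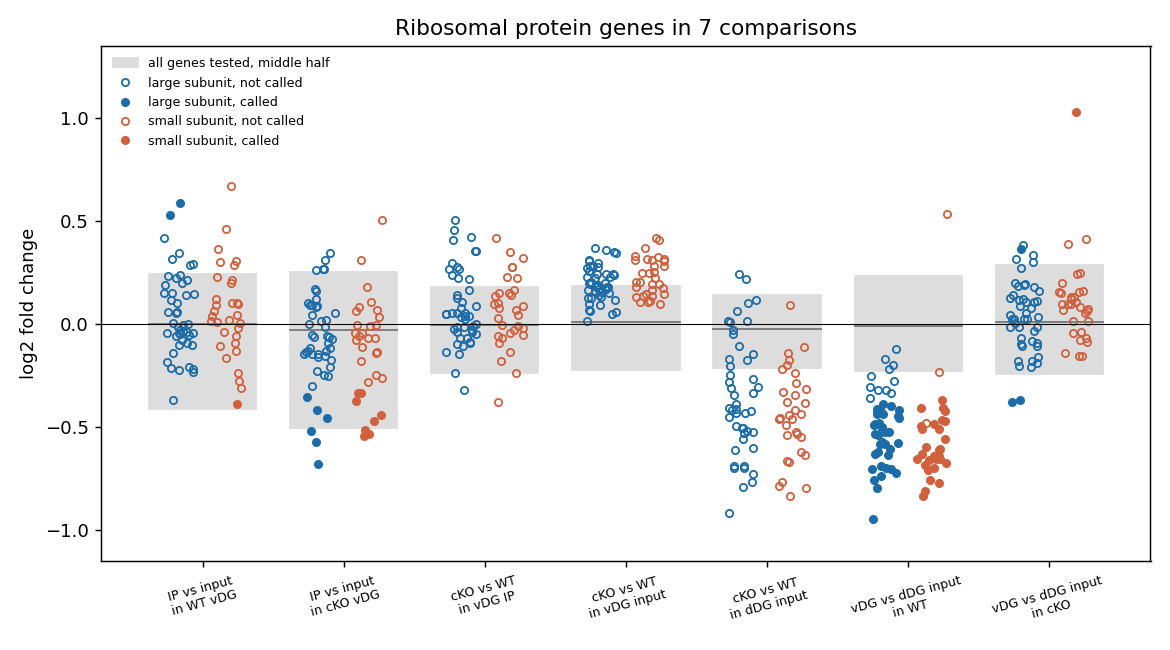
Log2 fold changes of the 79 tested members in 7 comparisons, first group minus second, large subunit in blue and small subunit in orange, filled where called. The grey box spans the middle 50% of all genes tested. In the vDG to dDG comparison of WT mice, where 64 were called, most members lie below the box, with Rpl7l1, Rpl21, Rpl6 and Rpl15 inside it and Rps4l above. In that of cKO mice the members lie around 0.

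In the vDG input every tested member had a positive log2 fold change of cKO against WT, 79 of 79, but by edgeR 0 were called at an FDR under 0.05, and DESeq2 also called 0. All genes were called higher in 0.108% and lower in 2.33% of 15786. At an unadjusted p under 0.05, 16 members were higher and 0 lower, against 4.23% and 10.6% of all genes. The members' median was 0.20, beside 0.01 for all genes. Leaving out single libraries moved these values. Without cKO input replicate 1 the median was 0.08 and 27 of 79 values were negative, without WT input replicate 2 it was 0.15 with 6 negative, and without cKO input replicate 2 it was 0.32 with 0 negative. In 24 members both cKO libraries lay above all WT libraries and in 0 below, where 15.0% of all genes lay above.

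Rps15 (0.42 ± 0.13, edgeR adjusted p = 0.10) and Rps20 (0.37 ± 0.13), both of the small subunit, were among the highest values. For Rps20 the WT inputs had 57.5, 53.2 and 61.8 CPM and the cKO inputs 79.5 and 69.7 CPM, without overlap. Rpl27a (0.02 ± 0.15), Rpl35 (0.05 ± 0.17) and Rpl36a (0.06 ± 0.15) had the lowest. The astrocyte markers also differed between these groups, at 404 to 505 CPM in WT and 294 to 331 CPM in cKO with 3 of 5 called lower. Of the 5 granule cell markers 1 was called lower, and of the 4 choroid plexus markers, 3 of them tested, 1 was called higher, their sums being 23.1 to 28.0 CPM in WT and 22.5 to 34.7 CPM in cKO. The sums of 6 interneuron markers, 433 to 497 CPM in WT and 362 to 366 CPM in cKO, and of 5 microglial markers, 23.6 to 38.4 and 16.7 to 23.4 CPM, did not overlap either, with none called by edgeR. The part of these markers in the result was not tested. Without WT input replicate 1, 1 member was called, higher in cKO.

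In the dorsal inputs most values had the opposite sign. Of 79 members 70 had a negative log2 fold change of cKO against WT, with a median of -0.41, a fold of 0.750, beside -0.02 for all genes. By edgeR 0 members were called at an FDR under 0.05, beside 0.0065% of 15383 genes called higher and 0.026% lower. At an unadjusted p under 0.05, 52 members were lower and 0 higher, against 7% and 5.23% of all genes, and DESeq2 called 15, all lower. Without a filter on low counts edgeR called 38. The shares of all genes above belong to the main edgeR fit, and none is given for DESeq2 or the unfiltered fit. In 38 members both cKO libraries lay below all 3 WT libraries and in 1 above, where 15.2% and 14.2% of all genes did so.

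Rplp1 (ENSMUSG00000007892, mm10 chr9:61913284-61914542) had 206, 295 and 152 CPM in WT dDG input and 126 and 105 CPM in cKO, a log2 fold change of -0.91 ± 0.21 (edgeR adjusted p = 0.16). Rps29, a short zinc-binding protein of the small subunit, had 93.6, 118 and 70.2 CPM against 55.1 and 50.4 CPM, a log2 fold change of -0.83 ± 0.17 (edgeR adjusted p = 0.13). In both genes every cKO library lay below every WT library. Rps21, of the small subunit and listed by the study, had 100, 91.8 and 69.1 CPM in WT and 56.4 and 45.0 CPM in cKO (-0.78 ± 0.16, edgeR adjusted p = 0.12). Rps27l was as low in value, -0.79 ± 0.36, but its WT libraries had 4.94, 11 and 4.03 CPM, with replicate 2 far above the others.

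At the other end stood Rpl7a (0.24 ± 0.15), Rpl10a (0.22 ± 0.11) and Rpl4 (0.12 ± 0.11), 3 large subunit proteins. Rpl10a had 143, 172 and 168 CPM in WT and 198 and 177 CPM in cKO, without overlap. In vDG input Rpl10a had 110, 146 and 137 CPM in WT and 175 and 159 CPM in cKO, also without overlap, and was not called. Rps6, the small subunit protein phosphorylated by the S6 kinases of the mTOR pathway, had 85.9, 92.0 and 87.7 CPM against 101 and 88.4 CPM (0.10 ± 0.11, edgeR adjusted p = 0.80), and its value turned to -0.0085 without cKO replicate 1.

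The size of the dorsal difference depended on single libraries of both genotypes. Without WT replicate 2 the median was -0.26, with 26 members lower and 1 higher at an unadjusted p under 0.05 and 0 called. Without WT replicate 3 it was -0.52 and 21 were called. Without cKO replicate 1 it was -0.56 and without cKO replicate 2 it was -0.28, with 0 called in each. Markers of the choroid plexus, a neighbor of the dissected tissue, moved with these groups. The 4 markers summed to 32.4 to 146 CPM in WT and 18.4 to 23.4 CPM in cKO dDG input. Among them Ttr, the defining one, had 4.14, 72.8 and 121 CPM in the 3 WT libraries and 4.19 and 1.60 CPM in cKO. Microglial markers, 5 in all, summed to 28.3 to 48.1 CPM in WT and 23.9 to 25.2 CPM in cKO. Astrocyte markers summed to 443 to 465 CPM in WT and 317 to 426 CPM in cKO. None of these markers was called in this comparison by edgeR, and their part in the result was not tested. In bulk tissue, fewer cells of a type and less RNA per cell cannot be told apart.

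The comparison of regions in WT mice gave the largest number of calls among these 9. Comparing WT vDG with WT dDG input, edgeR called 64 of 79 members lower in vDG and 0 higher, 35 of the large and 29 of the small subunit, where 6.09% of all 15412 genes were called lower and 9.26% higher. The median log2 fold change was -0.52, a fold of 0.696, beside -0.01 for all genes, with -0.49 for the large and -0.61 for the small subunit. In 67 members all 3 vDG libraries lay below all 3 dDG libraries and in 0 above, where 15.8% of all genes lay below.

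Rplp1 again had the largest difference, with 104, 105 and 123 CPM in vDG against 206, 295 and 152 CPM in dDG, a log2 fold change of -0.95 ± 0.17 (edgeR adjusted p = 0.0011). Rps16, a small subunit protein, had 33.0, 34.8 and 38.9 CPM against 59.1, 83.4 and 50.6 CPM, a log2 fold change of -0.83 ± 0.16 (edgeR adjusted p = 0.0014). Rps29 had 52.7, 46.3 and 58.8 CPM in vDG, a log2 fold change of -0.81 ± 0.16 (edgeR adjusted p = 0.0018). In all 3 the vDG and dDG libraries did not overlap. The stalk genes moved together here, Rplp2 by -0.70 ± 0.14 and Rplp0 from 89.7 to 106 CPM in dDG down to 49.3 to 64.1 CPM in vDG. Rps27, whose window above holds a pyrimidine run at the start, had -0.77 ± 0.13 (edgeR adjusted p = 0.00064), and its paralog Rps27l had -0.48 ± 0.30, did not pass and turned to 0.08 without WT dDG input replicate 2. Rpl22 and Rpl22l1 were both lower, with -0.43 ± 0.13 and -0.58 ± 0.16.

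The 15 members not called were mostly of the large subunit. Rps4l was the 1 member with a positive value, 0.53 ± 0.22 (edgeR adjusted p = 0.13), from 4.09, 6.24 and 6.77 CPM in dDG and 7.48, 6.53 and 10.5 CPM in vDG. Rpl7l1 had -0.12 ± 0.14 and Rpl21, of the large subunit, -0.17 ± 0.11. Rpl15 (-0.22 ± 0.10), Rps6 (-0.23 ± 0.12), Rpl10a (-0.28 ± 0.12) and Rpl10 (-0.32 ± 0.15) did not pass either. Rps6 and Rpl15 have pyrimidine runs at the start as Rps27 does. The windows printed above were picked by this same difference, and a relation of runs to its size was not tested.

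The count depended on library. It fell to 23 without WT dDG input replicate 2, to 35 without WT vDG input replicate 2 and to 43 without WT vDG input replicate 3, and ran from 53 to 64 without each of the others. The median without dDG replicate 2 was -0.40, and 77 of 79 members remained negative. The same 23 members, 11 of the large and 12 of the small subunit, were called without each of the 6 libraries in turn and in each of the 8 other fits, among them Rplp0, Rplp1, Rplp2, Rps16, Rps29 and Rps27. Mature granule cell markers summed to 958 to 1106 CPM in vDG and 1504 to 1526 CPM in dDG, and mossy cell markers to 182 to 215 and 43.7 to 56.2 CPM. Choroid plexus markers summed to 23.1 to 28.0 CPM in vDG and 32.4 to 146 CPM in dDG, with 1 called lower. The 6 interneuron markers summed to 433 to 497 and 285 to 349 CPM, and the 4 CA pyramidal cell markers to 72.8 to 90.6 and 26.3 to 28.4 CPM. Oligodendrocyte markers summed to 295 to 363 and 391 to 417 CPM, with 2 of 5 called lower. Their part in the result was not tested.

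The cKO mice, compared in the same way with 2 libraries a region, gave 2 members higher and 2 lower in vDG, where 8.56% of 15505 genes were called higher and 8.47% lower. The members' median was 0.08, beside 0.01 for all genes, and it turned to -0.09 without cKO vDG input replicate 1 and to -0.06 without cKO dDG input replicate 2. Rps4l had 8.99 and 8.49 CPM in vDG and 5.61 and 2.92 CPM in dDG, a log2 fold change of 1.03 ± 0.25 (edgeR adjusted p = 0.0061). Rpl41, the shortest ribosomal protein, had 137 and 122 CPM against 106 and 95.9 CPM (0.37 ± 0.11, edgeR adjusted p = 0.031). Rpl4 had 624 and 641 CPM in vDG and 834 and 820 CPM in dDG, a log2 fold change of -0.38 ± 0.11 (edgeR adjusted p = 0.016), and Rpl5, which carries the smallest RNA of the large subunit, had -0.37 ± 0.11 (edgeR adjusted p = 0.026).

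In all 4 the groups did not overlap. Without cKO dDG input replicate 2 none of the 4 was called, and without cKO vDG input replicate 2 the count was 12, 11 of them higher, so none was called in each of the 4 such fits. Mature granule cell markers summed to 1010 to 1014 CPM in vDG and 1497 to 1504 CPM in dDG, and mossy cell markers to 174 to 207 and 58.7 to 58.8 CPM. Choroid plexus markers, at 22.5 to 34.7 CPM in vDG and 18.4 to 23.4 CPM in dDG, had 1 called higher in vDG, where WT had 1 called lower. Their part in the result was not tested.

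The difference between genotypes in the regional comparison was tested as an interaction over the 10 inputs. All 79 members had a positive term, with a median of 0.59, beside -0.01 for all genes, but by edgeR 0 members and 0 of 16306 genes were called. Of genes that are not members, 353 with a principal transcript under 774 bases had a median term of 0.39. Members under that length had a median of 0.67. At an unadjusted p under 0.05, 60 members were higher and 0 lower, against 5.02% and 7.31% of all genes. DESeq2 called 19 members, all higher, and no share of all genes is given for DESeq2. The largest terms were those of Rplp1 (1.14 ± 0.26), Rps21 (1.09 ± 0.25) and Rps29 (0.97 ± 0.24), each with an edgeR adjusted p of 0.14. The smallest were those of Rpl4 (0.05 ± 0.16), Rpl5 (0.07 ± 0.18) and Rps6 (0.09 ± 0.17). In all, 7 members, these 3 among them, had a negative term in at least 1 fit that left out a library. Without WT dDG input replicate 2 the median was 0.44, with 40 members higher at an unadjusted p under 0.05 and 0 called. Without WT dDG input replicate 3, 10 members were called. The WT dDG inputs enter the WT regional comparison, the dorsal genotype comparison and this term, so the 3 results share those libraries.

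**Figure D4:**
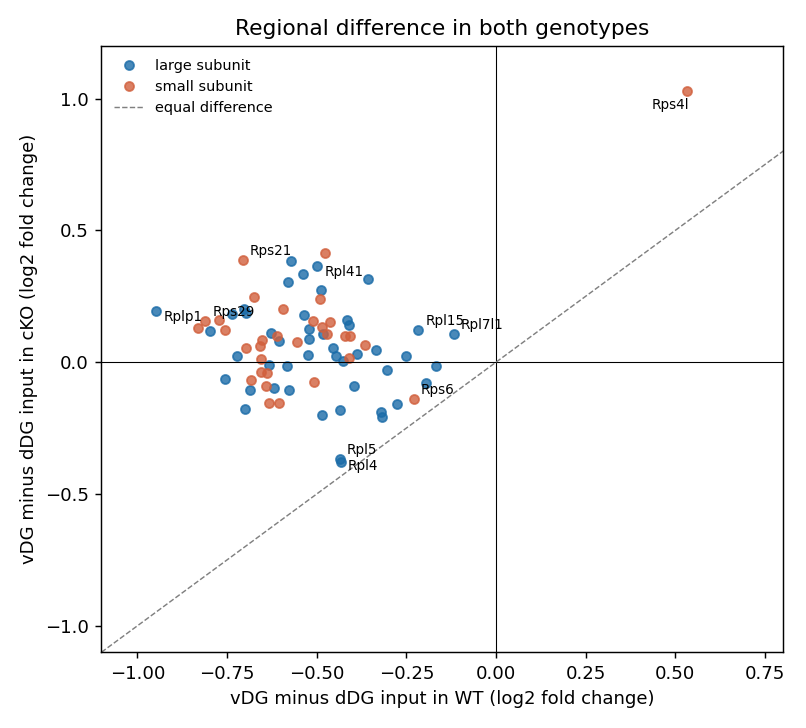
Log2 fold change of vDG against dDG input in WT (horizontal) and cKO mice (vertical) for the 79 tested members, with the line of equal difference. Most points lie left of 0 and near 0 vertically, Rpl4 and Rpl5 are lower in vDG on both axes, and Rps4l stands alone at the upper right.

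Among the members, values in several comparisons varied with transcript length. The median principal transcript had 774 bases for the members and 2978 for expressed genes. For cKO against WT in dDG input, the rank correlation (Spearman) of log2 fold change with transcript length over the 78 tested members with a length was 0.50. The 14 members under 500 bases had a median of -0.73, and the 20 over 1000 bases one of -0.27. For vDG against dDG in WT the correlation was 0.34, with medians of -0.62 and -0.45, and 13 of the 14 shortest and 17 of the 20 longest were called. In the ventral genotype comparison it was -0.05, with medians of 0.20 and 0.18. Without WT dDG input replicate 2 the first correlation was 0.42 and the second 0.19. For IP against input in WT the correlation was -0.21, and -0.35 without WT vDG IP replicate 3. For cKO against WT in vDG IP it was 0.25, and 0.32 without that library. These genes come from the same libraries and the correlations are descriptions.

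In the dorsal genotype and WT regional comparisons, short genes other than ribosomal protein genes were shifted in the same direction but less. Of genes under 774 bases that are not members, 334 had a median of -0.22 in the dorsal genotype comparison, and 325 a median of -0.20 in the WT regional comparison with 5.85% called lower, where 64 of 79 members were called. Genes at or over that length had medians of -0.02 and 0.01. In the ventral genotype comparison 338 short genes had a median of 0.20, the same as the members. In the regional comparison of cKO mice 338 such genes had a median of 0.26, beside 0.11 for members under that length. In the genotype comparison of the IP 306 had a median of 0.10, beside -0.01 for such members. Removing the trend with length, an alternative chosen after seeing the data, left a median of -0.25 in the dorsal genotype comparison and -0.45 in the WT regional comparison.

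**Figure D5:**
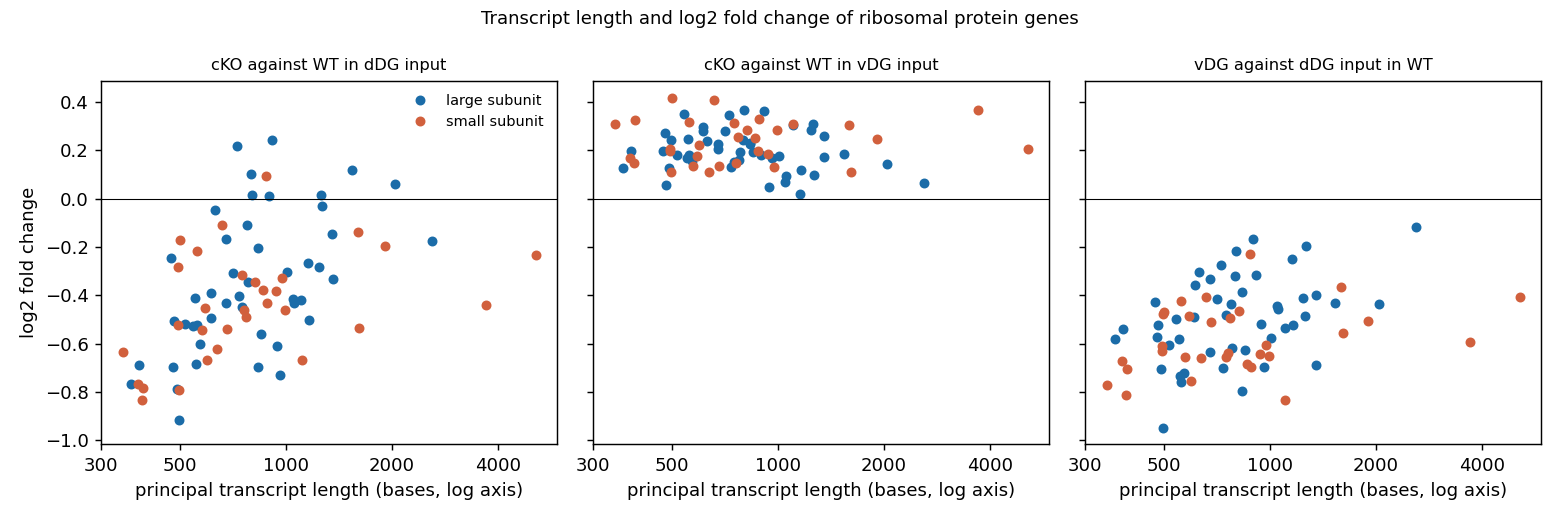
Log2 fold change against principal transcript length (bases, log axis) for 78 members in 3 comparisons, large subunit in blue and small subunit in orange. In cKO against WT dDG input the shortest genes lie lowest, in the vDG input the values lie level above 0, and in WT vDG against dDG all lie below 0.

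Ribosomal proteins that the symbol rule leaves out were also lower in WT vDG than in dDG input. The log2 fold change was -0.81 ± 0.15 for Rps3a1, a small subunit protein, -0.55 ± 0.15 for Fau, which encodes a small subunit protein fused to a ubiquitin-like domain, and -0.52 ± 0.14 for Rack1, a scaffold protein of the small subunit. In dDG input none of the 3 was called between genotypes by edgeR, with log2 fold changes of -0.52, -0.67 and -0.42, each at an unadjusted p under 0.05.

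Other TOP mRNAs were followed less closely. Of 18 genes for elongation factors and related proteins, 6 were lower in WT vDG than in dDG input and 0 higher, with a median of -0.28, beside 6.09% and 9.26% of all genes. They were Tpt1 (-0.53 ± 0.12), Ybx1 (-0.47 ± 0.11), Naca (-0.43 ± 0.13), Eef1a1 (-0.42 ± 0.11), Eif3e (-0.40 ± 0.13) and Eif4b (-0.34 ± 0.11). Tpt1 is the translationally controlled tumor protein, and Eef1a1 brings aminoacyl-tRNA to the ribosome. In the dorsal genotype comparison their median was -0.08 and 0 were called.

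Of 76 tested proteins of the mitochondrial ribosome, 1 was lower and 0 were higher in WT vDG, with a median of -0.06, and in the dorsal genotype comparison the median was -0.12 with 0 called. In the ventral genotype comparison their median was 0.19 with 0 called. Between regions in cKO mice 5 were called higher in vDG and 0 lower (median 0.19), beside 8.56% and 8.47% of all genes. Their genotype by region term had a median of 0.29, with 15 higher and 0 lower at an unadjusted p under 0.05 and 0 called. Of all genes 5.02% were higher and 7.31% lower at that p. Against input, the WT IP had 6 of the 76 called higher and none lower, their median being 0.26, a share near the 7.73% of all genes.

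Some assembly factors of the ribosome and members of the mTOR pathway differed between IP and input. Of 23 assembly genes, the WT IP had 6 called higher and none lower (median 0.26), and the cKO IP had 10 called higher and none lower (median 0.31), beside 7.73% and 11.8% of all genes called higher. In both genotypes these included Heatr1 (0.85 ± 0.15 in WT), Polr1a (0.67 ± 0.13 in WT), the large subunit of RNA polymerase I, and Ubtf (0.71 ± 0.11 in WT), which activates it. Of 17 genes of mTOR and TOP control, 4 were higher and 2 lower in the WT IP, beside 7.73% and 16.1% of all genes. Mtor (0.53 ± 0.15), Rptor (0.73 ± 0.12), Rictor (0.72 ± 0.14) and Tsc2 (0.73 ± 0.13) were higher, and Deptor (-0.76 ± 0.19), an mTOR inhibitor, and Eif4ebp2 (-0.72 ± 0.16), a translational repressor, were lower. In the cKO IP 4 of the 17 were higher and 4 lower, beside 11.8% and 15.7% of all genes. Between regions in WT, 0 of these 17 and 1 of the 23 assembly genes were called. Of the 18 TOP mRNAs outside the ribosome, 3 were called lower in the WT IP and 0 higher, a share near the 16.1% of all genes called lower. Pabpc1, the poly(A)-binding protein, was lower by 0.71 ± 0.12 (log2 fold change -0.71, edgeR adjusted p = 0.00060), and Vim, an intermediate filament gene of glia, was lower with -1.30 ± 0.22.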

How the data were processed

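RNA was amplified from 15 ng with the NuGEN Ovation V2 kit and sequenced as paired 75 bp reads. The authors trimmed the reads, aligned them to mm10 with STAR 2.4.2a, removed duplicates with SAMtools 0.1.19-444 and made gene counts with HTSeq, which keeps uniquely aligned reads, and deposited those raw counts per library. A GC percent per gene was taken from a deposited table, whose 25 normalized per-sample columns and authors' fold changes and p-values were not used. Rows naming no gene were dropped: no feature held 11.3% to 18.7% and ambiguous 2.50% to 8.60% of counted fragments.

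Each comparison was fitted over its own groups with edgeR 4.0.16 (R 4.3.3, filterByExpr, TMM, quasi-likelihood, two-sided) across all genes with Benjamini-Hochberg adjustment, at an FDR of 0.05, or 0.1 for cKO against WT in vDG IP. Values with ± are log2 fold changes with SE. CPM levels use 1 TMM scaling over all libraries, and log2 fold changes that of their own fit. Libraries are pools of mice, which the study's methods call biological replicates, and p-values measure the spread between these pools. Depth was 19039295 to 30451430 counts, counting error only. Coordinates and transcript lengths (APPRIS principal) are from GENCODE M21 and start windows from RefSeq, GRCm38.p6. The fits were tested on simulated counts.

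Members and lists were chosen with earlier results of these data known. Named are, per comparison, the 3 lowest and 3 highest members of at least 5 CPM, the paralogs, Rpl10a, Rps6, Rpsa and the stalk genes, members listed by the study, the 3 most and least abundant, and those below the filter. Some genes that this rule names are not reported here. Alternatives were DESeq2 1.42.0, other scalings and filters, 1 fit of all libraries, a replicate block, GC and length trends, other thresholds and leaving out each library. Shares of all genes called, or passing an unadjusted p, are those of the main fits, and counts of members from other fits stand without a share. The records call input tissue cortex where titles and methods say DG.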

Additional observations from a re-analysis of the deposited data

Results flagged for a closer look

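In 8 members both cKO libraries lay above all WT libraries in vDG input and below all WT libraries in dDG input, and in 0 members the reverse. Of all 16306 genes tested, 1.55% showed the first pattern and 1.51% the reverse. The difference between the regions in the cKO effect, on the log2 scale, was 0.713 for Rpl28, 0.915 for Rpl37, 0.917 for Rpl37a, 0.862 for Rpl41, 0.738 for Rpl8, 0.579 for Rplp0, 0.961 for Rps16 and 0.793 for Rps20. The interaction test by edgeR called none of the 8. Groups of 2 or 3 libraries were too small to test single libraries as outliers.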

How the results depend on the processing

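The 64 members lower in WT vDG than in dDG input were 51 to 68 in all other fits of all libraries. The number called in WT IP against input was 5 without a count filter. For cKO IP against input it was 24 with a replicate block, 23 with library size alone, 3 with all libraries in 1 fit and 0 by the study's fold limits for enriched and depleted genes. For cKO against WT in vDG IP it was 2 by DESeq2, 1 without a count filter, 1 with all libraries in 1 fit and 1 with the replicate block. For cKO against WT in dDG input it was 15 by DESeq2, 38 without a count filter and 22 with the block. For vDG against dDG in cKO it was 9 with the block, 2 with all libraries in 1 fit and 7 at an FDR under 0.1. The genotype by region term called 19 by DESeq2, 28 without a count filter and 1 with the block. The cause of these shifts was not tested.

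The median of cKO IP against input, -0.07, became 0.186 with the GC trend removed, 0.208 with the length trend removed (chosen after seeing the data), 0.195 with the block and GC trend together and -0.242 with library size alone. That of vDG against dDG in cKO, 0.08, became -0.132 with the length trend removed. Leaving out 1 library gave 0 to 20 calls in WT IP against input, 8 to 15 in cKO IP against input, 0 to 2 and 0 to 1 for cKO against WT in vDG IP and vDG input, 0 to 21 in dDG input, 23 to 64 and 0 to 12 for the regions in WT and cKO, 0 to 10 for the genotype by region term, and medians of -0.203 to 0.0706 in cKO IP against input. A group left with 1 library was assumed to vary like the others in the fit.

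Of the log2 fold changes printed for single members, none that was called changed sign. Signs turned for Rpl10a in cKO IP against input (0.0863 with the GC trend removed, 0.132 with the length trend removed, 0.0961 with block and GC trend) and, in cKO against WT vDG input, for Rpl27a (-0.0774 with the length trend removed, -0.0116 with the block, -0.000595 with block and GC trend, -0.282 to 0.265 without single libraries, negative without WT vDG input replicate 2 (-0.0218) or cKO vDG input replicate 1), Rpl35 (-0.07 with the length trend removed, -0.1 to 0.186, negative without the same libraries, -0.0544 without the first) and Rpl36a (-0.119 with the length trend removed, -0.0832 to 0.145, negative without the same libraries, -0.0348 without the second). They also turned for Rps27l between regions in WT (0.0791 without WT dDG input replicate 2, -0.754 at the other end), Rplp2 in cKO IP against input (-0.0445 with library size alone, -0.0838 to 0.367 without single libraries), Rps6 in cKO against WT dDG input (-0.00847 to 0.195 without single libraries) and, in the genotype by region term, Rpl4 (-0.0955 with the length trend removed, -0.00919 to 0.142 without single libraries), Rpl5 (-0.0129 to 0.199) and Rps6 (-0.218 and -0.00738 to 0.19). In cKO against WT vDG input, 28 of the 79 members were negative in at least 1 fit that left out a library. Deviations of same-numbered libraries correlated at 0.47, -0.16 and -0.33 (WT IP and input), 0.39, -0.11 and 0.23 (WT regions), 0.38 (cKO IP and input), 0.16 (cKO regions) and -0.20 to -0.01 (cKO and WT). With these signs, and 2 pairs in each cKO comparison, the numbers were not taken as pairs. Deviations balance out within such small groups, so these values cannot decide the pairing. By the study's methods IP and input libraries can come from the same homogenate. The replicate numbers of the cKO dDG inputs differ between record titles and file names. The titles were used, and blocked values with these libraries depend on that. Ordered by CPM without division by length, the 10 most abundant members shared 6 with the order per kb.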
